A study of Homo sapiens with 60 samples.

Results

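The genes described are 10 members of the mitochondrial and receptor routes to cell death, measured in metal-treated 1321N1 cells. They are PMAIP1, BBC3, BCL2L11, BAX, BAK1, BID, MCL1, BCL2L1, BCL2, and TNFRSF10B. They were picked by gene name from the 62703 genes of the count table. The study exposed 1321N1, a human cell line derived from an astrocytoma, to arsenic (2.55 µM sodium metaarsenite), cadmium (2.3 µM cadmium chloride), or mercury (20 µM mercury chloride), or left it non-treated, and sequenced the 3′ ends of its mRNA at 5 times between 1.5 and 24 h (with 3, 6, and 12 h between them). Each of the 20 groups holds 3 libraries, 60 in all. The labels call the triplicates technical, so the p-values cover the spread between these libraries only. Per the study's methods, the concentrations were those that kill a fixed share of the cells over a longer exposure than any sequenced here, and cells were washed and lysed in the plate, so RNA of cells that had already detached was not measured.

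BCL2-family proteins decide whether the outer mitochondrial membrane stays intact. BAX and BAK1 form the pores that release cytochrome c, the anti-apoptotic proteins MCL1, BCL-XL (BCL2L1), and BCL2 hold them in check, and the BH3-only proteins NOXA (PMAIP1), PUMA (BBC3), BIM (BCL2L11), and BID tip the balance by binding the anti-apoptotic proteins or by activating BAX and BAK1. The receptor route begins at the cell surface, where TNFRSF10B (DR5), a receptor for the ligand TRAIL, recruits FADD and caspase-8. Caspase-8 cleaves BID and so connects both routes.

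The promoter bases of PMAIP1 and BBC3 are shown because these are the BH3-only genes with the widest range of group means. RefSeq promoter windows matched 8 of the 10 genes, and the 250 bases before each start site were searched on both strands for short motifs of stress-responsive factors. Capitals mark matches. In PMAIP1 (GRCh38.p14, chr18:59899746-59899995, plus strand) these are a metal response element core (TGCNCNC) that starts at base -223 from the start site and, at base -55, a match to the cAMP response element core TGACG on the other strand. In BBC3 (chr19:47232767-47232917, minus strand, with the bases inside the annotated gene left out) the match is an AP-1 site (TGANTCA) at base -113.
PMAIP1: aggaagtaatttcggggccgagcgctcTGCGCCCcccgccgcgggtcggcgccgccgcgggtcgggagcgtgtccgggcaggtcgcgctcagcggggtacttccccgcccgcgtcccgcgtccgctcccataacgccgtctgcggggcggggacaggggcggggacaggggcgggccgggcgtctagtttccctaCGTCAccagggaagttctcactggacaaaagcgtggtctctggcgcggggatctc
BBC3: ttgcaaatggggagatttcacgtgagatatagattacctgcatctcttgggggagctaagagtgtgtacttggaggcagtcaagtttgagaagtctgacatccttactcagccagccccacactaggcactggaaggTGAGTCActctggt

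Of all 35116 promoter windows, 49.1% hold the metal response element core, 21.2% hold TGACG, and 6.57% hold the AP-1 site. The metal response element core was also found for BCL2, BCL2L1, BCL2L11, and BID, and TGACG also for BAX, BCL2, and BCL2L1. The heat-shock element core GAANNTTC was found for BAK1 and in 5.78% of all windows, and the antioxidant response element core TGACNNNGC for BAX and in 10.9%. The full cAMP response element TGACGTCA, held by 1.65% of windows, and the amino acid response element core TGATGNAA, held by 3.14%, were not found for any of the 8 genes.

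Total counts per library ranged from 2215276 to 4404609, and 12341 genes, all 10 studied here among them, passed the filter on low counts. Levels are given in CPM (counts scaled by library size and TMM factor), log2 fold changes as LFC with the standard error of the model, and a gene was called at an adjusted p under 0.05 in edgeR's quasi-likelihood test over all genes tested. In the cell line, 6 of 12 astrocyte markers passed the filter, with VIM, CD44, NFIA, SOX9, and GJA1 at mean levels of 4410, 386, 105, 77.1, and 21.2 CPM, whereas AQP4 and ALDH1L1 had 0 counts in every library and GFAP, S100B, and SLC1A2 had at most 5. Of 12 markers of other cell types, 4 passed, led by COL1A1 at 737 CPM. The summed astrocyte markers ranged from 4066 to 5891 CPM in the non-treated libraries and from 3498 to 6459 CPM in the treated ones.

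Each gene was tested 15 times against time-matched non-treated cells, and of these 150 tests 26 passed the threshold, all of them with a higher level under metal. An unadjusted p under 0.05 was reached in 43 tests, in 2 of them with a lower level under metal, and DESeq2 also called no gene lower. Over the same 15 comparisons, 3.16% of all tests were called higher and 2.55% lower. Mercury accounted for 16 of the calls in 6 genes (background called higher 5.82%), cadmium for 6 in 3 genes (1.71%), and arsenic for 4 in 3 genes (1.94%). The 3 metals share the non-treated libraries of each time. By gene, PMAIP1 was called 8 times, MCL1 7 times, TNFRSF10B 6 times, BBC3 and BID 2 times each, and BCL2L11 once, while edgeR called BAX, BAK1, BCL2L1, and BCL2 in 0 of 15 tests each, with 1, 1, 2, and 0 tests at an unadjusted p under 0.05, and DESeq2 in 0 as well. In these bulk libraries, a higher level in every cell and a higher level in some of the cells cannot be told apart. An LFC above 1 was reached in 6 of the calls, all under mercury (0.957% of all tests). Groups of 3 libraries without overlap were common. The share of all genes lying wholly above non-treated cells ran from 6.55% (arsenic, 3 h) to 18.9% (mercury, 24 h). The share wholly below ran from 5.76% to 19.1% in the same comparisons.

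Under mercury the number of genes called was 1 of 10 at 1.5 h (background called higher 0.478%), 3 at 3 h (1.39%), then 4 at 6 h (4.49%), 3 at 12 h (8.89%), and finally 5 at 24 h (13.9%). Under cadmium the number called was 0 at 1.5 h in edgeR (background called higher 0%) and DESeq2, and 0 genes had an unadjusted p under 0.05. It was 1 at 3 h (background called higher 0.203%), then 2 at 6 h (1.6%) and 2 at 12 h (5.19%), and again 1 at 24 h (1.56%). Arsenic had no call at 1.5, 3, and 6 h in edgeR (background called higher 0.0648%, 0.122%, and 0.608%) or DESeq2. At these times 1, 3, and 1 of the 10 genes had an unadjusted p under 0.05. Arsenic then had 1 call at 12 h (background called higher 2.37%) and 3 at 24 h (6.54%).

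**Figure D1:**
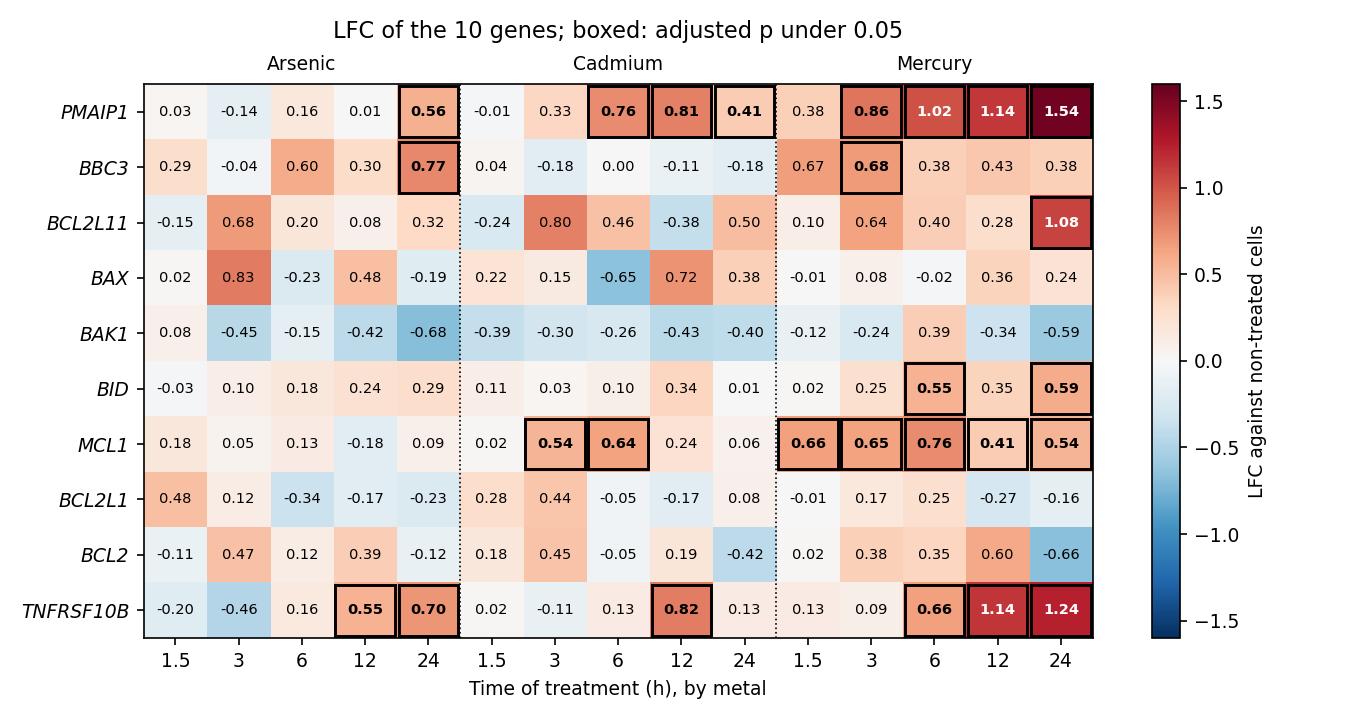
Log2 fold change of each of the 10 genes (rows) against non-treated cells of the same time, for each metal and time in h (columns), on a colour scale centred at 0, with the calls at an adjusted p under 0.05 marked. The 26 marked cells lie in 6 rows, 16 of them under mercury, and the rows of BAX, BAK1, BCL2L1, and BCL2 hold none.

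PMAIP1 (ENSG00000141682.12, GRCh38 chr18:59899996-59904305) encodes NOXA, a BH3-only protein that binds MCL1. It rose under mercury from 3 h on and under cadmium from 6 h on, and under arsenic at 24 h. In the non-treated libraries at 24 h its level was 63.1, 86.4, and 85.4 CPM. The mercury libraries of that time had 234, 226, and 221 CPM, far above the highest non-treated library, and the groups did not overlap. Their mean of 227 ± 6.14 CPM (SD, n = 3) was 2.91-fold the non-treated mean in the model, with an LFC of 1.54 ± 0.12 (SE, edgeR adjusted p = 1.53e-17).

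The arsenic libraries at 24 h had 106, 129, and 110 CPM, above all non-treated libraries (LFC 0.56 ± 0.12, edgeR adjusted p = 0.000373). The cadmium libraries had 118, 103, and 88.7 CPM, and the lowest of them lay just above the highest non-treated library. The cadmium LFC of 0.41 ± 0.12 passed narrowly (edgeR adjusted p = 0.0481). It was lost without the first non-treated library of 24 h (LFC 0.28, edgeR adjusted p = 0.398), without the first cadmium library (LFC 0.31, adjusted p = 0.325), and without the second (LFC 0.42, adjusted p = 0.112).

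The time courses of PMAIP1 differed between the metals. Under mercury the LFC was 0.38 at 1.5 h (edgeR adjusted p = 0.164), 0.86 at 3 h (1.55e-07), then 1.02 at 6 h (4.2e-10) and 1.14 at 12 h (3.69e-12), so that the value at 24 h was the largest of its 15 LFCs. Under cadmium it was -0.01 at 1.5 h, then 0.33 at 3 h (edgeR adjusted p = 0.391), 0.76 at 6 h (7.57e-06), and finally 0.81 at 12 h (3.6e-07). Under arsenic the LFC up to 12 h lay between -0.14 and 0.16, and the arsenic and non-treated libraries overlapped at each of those times.

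The non-treated level of PMAIP1 itself fell over time. The non-treated libraries had 114, 130, and 109 CPM at 1.5 h and 63.1, 86.4, and 85.4 CPM at 24 h, without overlap. This fall had an LFC of -0.59 ± 0.12 (edgeR adjusted p = 0.00116), and PMAIP1 was the one gene of the 10 called by edgeR between non-treated cells of 24 h and 1.5 h (1.45% of all genes called lower). BBC3 had the opposite direction in these groups, with 22.7 ± 1.66 CPM at 1.5 h and 34.3 ± 8.45 CPM at 24 h (LFC 0.59, edgeR adjusted p = 0.0509), and it was called higher by DESeq2 (0.58, adjusted p = 0.0341). At 3, 6, and 12 h edgeR called none of the 10 against 1.5 h, with 3, 4, and 2 at an unadjusted p under 0.05 (0.122%, 0.486%, and 4.09% of all genes called), while DESeq2 called PMAIP1 and TNFRSF10B lower at 12 h (LFC -0.38 and -0.45, adjusted p = 0.0247 and 0.0379). At 24 h the arsenic mean of 115 ± 12.3 CPM was close to the non-treated mean of 118 ± 10.8 CPM at 1.5 h, whereas the mercury mean was above every non-treated library of any time, the highest of which had 130 CPM.

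BBC3 (ENSG00000105327.18, chr19:47220822-47232766) encodes PUMA, which binds all anti-apoptotic family members, and it had the widest range of group means, from 13.7 CPM (cadmium, 3 h) to 58.4 CPM (arsenic, 24 h). Arsenic at 24 h gave 60.5, 55.3, and 59.5 CPM against 32.2, 27.1, and 43.6 CPM in non-treated cells, and the groups did not overlap. The LFC was 0.77 ± 0.17 (edgeR adjusted p = 0.000455), and it remained called without any single library, with an LFC between 0.63 and 0.98. Arsenic libraries also lay wholly above non-treated ones at 1.5, 6, and 12 h, without a call. Their means were 27.8, 29.9, and 32.1 CPM, against 22.7, 19.8, and 26.1 CPM. Of all genes, 7.9%, 7.54%, and 10.1% lay wholly above in these comparisons. At 3 h the groups overlapped. The mercury mean at 6 h was 25.7 CPM. Mercury at 24 h gave 42.8, 52.1, and 38.7 CPM, which overlapped with the non-treated libraries (LFC 0.38, 95% interval 0.04 to 0.71, edgeR adjusted p = 0.087). Without the third non-treated library, the highest, the mercury LFC was 0.60 (adjusted p = 0.0112).

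At 1.5 and 3 h the mercury libraries of BBC3 all lay above the non-treated ones, but the tests were near the threshold. At 3 h the libraries had 23.0, 30.5, and 20.7 CPM against 16.3, 14.7, and 15.7 CPM. The LFC of 0.68 ± 0.19 passed at the edge of the threshold (edgeR adjusted p = 0.0495) and was lost when the first or second mercury library or any of the 3 non-treated libraries was left out (LFC 0.48 to 0.73, adjusted p up to 0.499). At 1.5 h the mercury libraries had 40.4, 39.7, and 28.7 CPM against 22.6, 24.4, and 21.1 CPM, again without overlap, and an LFC of 0.67 ± 0.18 that missed the threshold (edgeR adjusted p = 0.06) but passed without the third mercury library (0.82, adjusted p = 0.0215) and in DESeq2 (0.67, adjusted p = 0.0367). Cadmium gave no call in BBC3 at any time, with LFCs between -0.18 and 0.04.

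BCL2L11 (ENSG00000153094.24, chr2:111119378-111168445) encodes BIM, an activator of BAX and BAK1, and was called once. Mercury at 24 h gave 19.5, 33.8, and 19.2 CPM against 13.7, 7.38, and 13 CPM in non-treated cells. The second mercury library was well above the other two, and all 3 were above the non-treated libraries. The LFC was 1.08 ± 0.26 (edgeR adjusted p = 0.000734), and without the second mercury library it was 0.77 (adjusted p = 0.0388). The other 14 LFCs of BCL2L11 lay between -0.38 and 0.80 and none passed, at a median of 36 counts in the non-treated libraries. The widest of their 95% intervals spanned 1.14 on the log2 scale. Reads from the 3′ end do not separate its splice forms, nor those of MCL1 and BCL2L1.

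**Figure D2:**
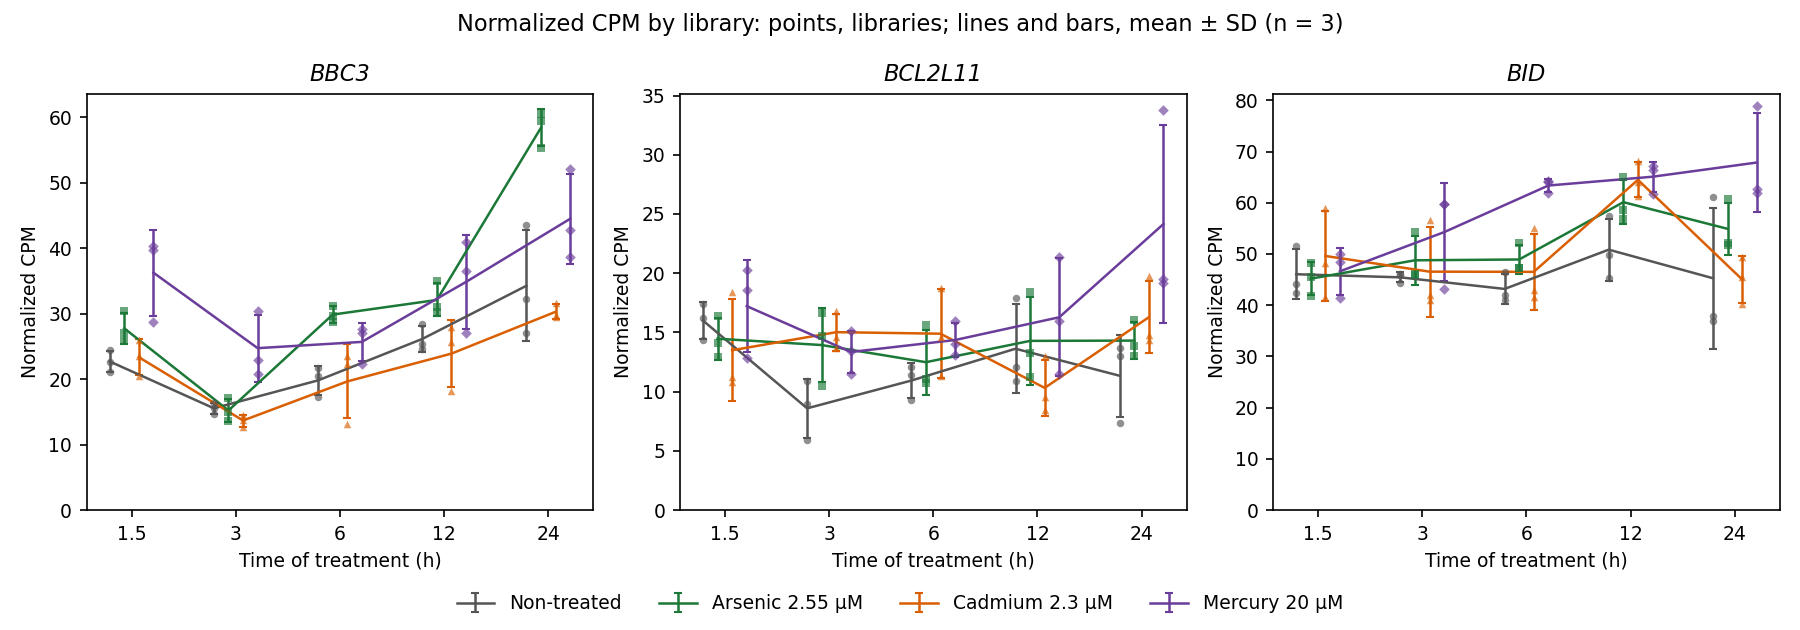
CPM of BBC3, BCL2L11, and BID in each library against time in h, with points for the 3 libraries of a group and lines through the group means of non-treated, arsenic, cadmium, and mercury cells. The arsenic libraries of BBC3 at 24 h sit between 55.3 and 60.5 CPM, above all others of that time, and the second mercury library of BCL2L11 stands apart at 33.8 CPM.

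BID (ENSG00000015475.19, chr22:17734138-17774770), the BH3-only protein that caspase-8 activates, was called under mercury at 6 and 24 h. The mercury libraries at 6 h had 61.8, 64.2, and 64.1 CPM against 42.0, 40.9, and 46.6 CPM, with no overlap and little spread. The LFC of 0.55 ± 0.15 (edgeR adjusted p = 0.0114) fell to 0.53 with an adjusted p of 0.0502 without the second non-treated library. At 24 h the mercury libraries had 62.6, 62.0, and 79.0 CPM against 36.8, 61.2, and 37.8 CPM in non-treated cells, where the second library was far above the other two and just below the lowest mercury library.

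The BID difference at 24 h had an LFC of 0.59 ± 0.15 (edgeR adjusted p = 0.00136). Without the second non-treated library the mercury LFC was 0.86, and the arsenic LFC rose from 0.29 (edgeR adjusted p = 0.208) to 0.56 (0.0114). That library therefore decided whether arsenic had a call in BID at 24 h. Cadmium gave no call, with the largest LFC, 0.34, at 12 h (edgeR adjusted p = 0.155).

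The pore-forming BAX (ENSG00000087088.21, chr19:48954815-48961798) and BAK1 (ENSG00000030110.14, chr6:33572547-33580293) were not called under any metal at any time. BAX was the lowest of the 10 in non-treated cells, with a median of 7.09 CPM and a range of 3.4 to 12.1 CPM over 15 libraries. The third arsenic library of 3 h had 25.0 CPM (75 counts) against 4.64 and 7.87 CPM in the other two, so that the arsenic mean of 12.5 ± 10.9 CPM rested on that library (LFC 0.83, edgeR adjusted p = 0.633). The 15 BAX LFCs lay between -0.65 and 0.83, and the widest of their 95% intervals spanned 1.69 on the log2 scale.

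BAK1 had a median of 14.9 CPM in non-treated cells. At 24 h the non-treated libraries had 16.7, 15.1, and 17.0 CPM, and the arsenic libraries had 9.37, 13.9, and 7.07 CPM, all below them. Mercury gave 7.87, 12.7, and 11.9 CPM, also without overlap. Of all genes, 14.3% lay wholly below non-treated cells under arsenic at 24 h, and 19.1% under mercury. The BAK1 LFCs of -0.68 for arsenic (95% interval -1.28 to -0.09, edgeR adjusted p = 0.122) and -0.59 for mercury (-1.18 to 0.01, adjusted p = 0.137) did not pass.

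**Figure D3:**
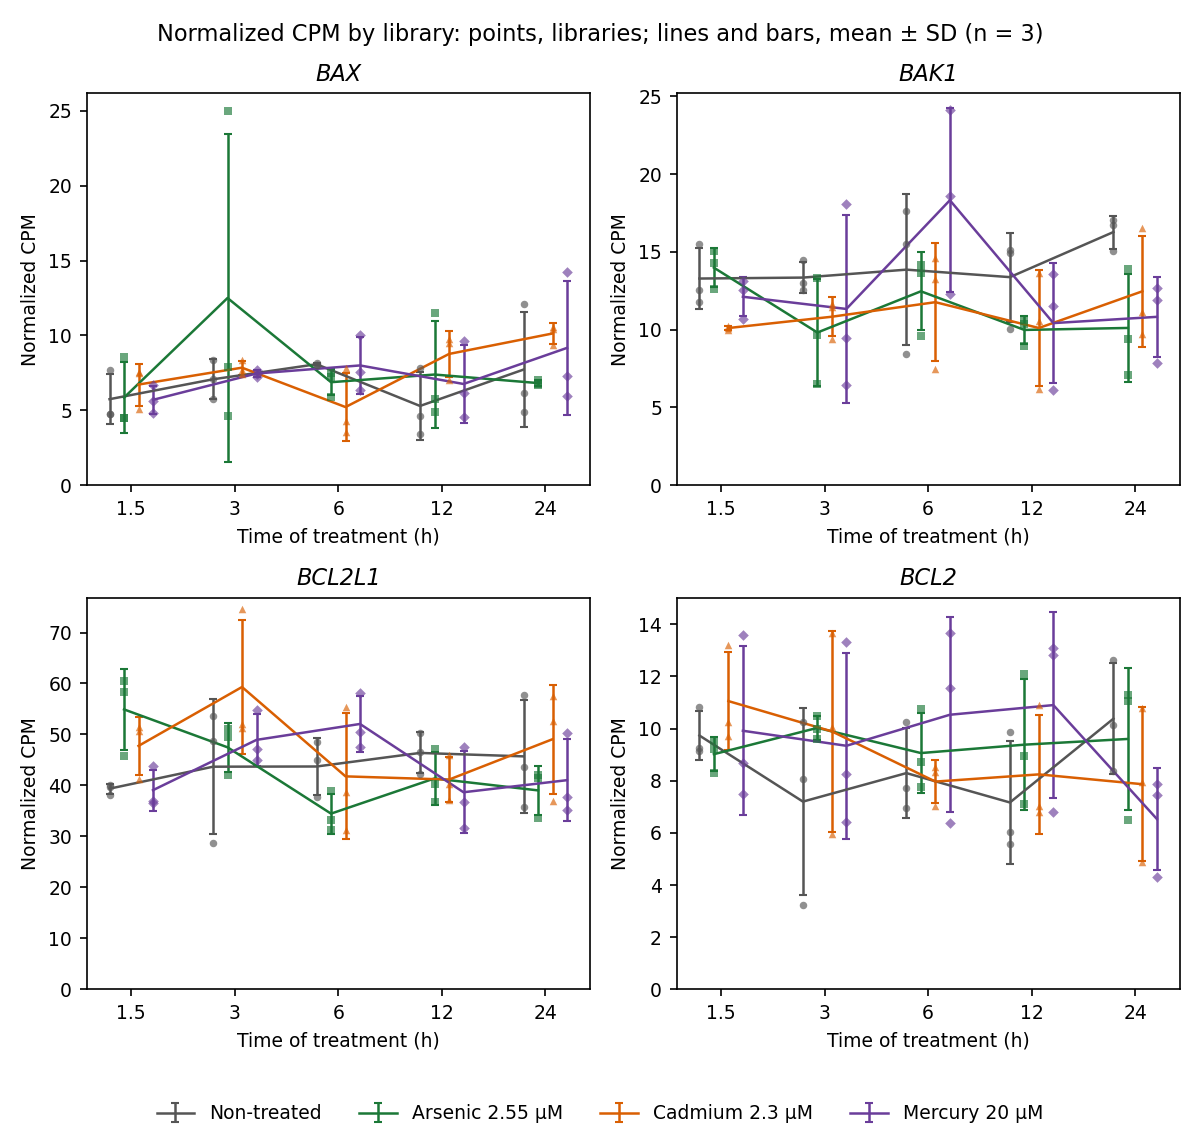
CPM of BAX, BAK1, BCL2L1, and BCL2 in each library against time in h, with points for the 3 libraries of a group and lines through the group means of non-treated, arsenic, cadmium, and mercury cells. The 4 genes had no call against non-treated cells, and a single arsenic library of BAX at 3 h reaches 25.0 CPM.

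MCL1 (ENSG00000143384.14, chr1:150560895-150579738), the anti-apoptotic protein that NOXA binds, had the highest level of the 10 genes, with a median of 248 CPM over the 15 non-treated libraries, in 3′-end counts that do not scale with transcript length. In the edgeR model of all libraries it was the earliest of the genes to be called, under mercury at 1.5 h. Alternative runs also called BBC3 (DESeq2, adjusted p = 0.0367) and PMAIP1 (edgeR with only the 6 libraries compared, adjusted p = 0.0224) at that time. The mercury libraries of MCL1 at 1.5 h had 435, 443, and 463 CPM against 273, 288, and 287 CPM, far apart and with no overlap. The LFC was 0.66 ± 0.10 (edgeR adjusted p = 4.85e-06).

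Mercury kept MCL1 above the non-treated level at all later times, with an LFC of 0.65 at 3 h (edgeR adjusted p = 3.15e-06), 0.76 at 6 h (3.44e-08), then 0.41 at 12 h (0.00174) and 0.54 at 24 h (1.75e-05). The libraries at 24 h had 317, 366, and 330 CPM against 248, 238, and 211 CPM. At 12 h the non-treated libraries were spread more widely, at 312, 294, and 235 CPM, against 347, 387, and 385 CPM, and without the lowest of them, the third, the LFC was 0.30 with an adjusted p of 0.0523.

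Cadmium raised MCL1 at 3 and 6 h. The libraries at 3 h had 411, 408, and 304 CPM against 269, 246, and 254 CPM, so that the third was lower than the others but above every non-treated library (LFC 0.54 ± 0.10, edgeR adjusted p = 0.000688). At 6 h they had 380, 400, and 344 CPM against 243, 232, and 244 CPM (LFC 0.64, edgeR adjusted p = 6.63e-06). By 24 h the cadmium libraries, at 250, 252, and 227 CPM, overlapped with the non-treated ones (LFC 0.06, 95% interval -0.14 to 0.27).

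Arsenic gave no call in MCL1. Its LFCs lay between -0.18 (12 h) and 0.18 (1.5 h), and the largest upper bound among their 95% intervals was 0.38, below the LFCs of mercury at all 5 times.

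The level of PMAIP1 relative to MCL1 is given as a description and was not tested. In non-treated cells the ratio of their CPM was 0.417 ± 0.0348 at 1.5 h and 0.341 ± 0.0779 at 24 h (SD, n = 3). Under mercury it was 0.345 ± 0.0233 at 1.5 h, when the edgeR model of all libraries called MCL1 alone, 0.466 ± 0.117 at 6 h, and 0.674 ± 0.0595 at 24 h. The 3 mercury libraries of 24 h, between 0.617 and 0.736, were above the highest non-treated library of that time, at 0.405. At 24 h the ratio was 0.470 ± 0.0615 under arsenic and 0.425 ± 0.0427 under cadmium.

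BCL2L1 (ENSG00000171552.14, chr20:31664452-31723989) and BCL2 (ENSG00000171791.14, chr18:63123346-63320128) were not called against non-treated cells. BCL2L1 had a median of 43.7 CPM in non-treated cells, and the largest of its 15 LFCs was 0.48 under arsenic at 1.5 h, with libraries at 58.3, 60.6, and 45.9 CPM against 38.2, 40.1, and 39.8 CPM (edgeR adjusted p = 0.34). Its 95% intervals spanned -0.73 to 0.86. BCL2 had a median of 9.15 CPM and 95% intervals from -1.35 to 1.28. At 24 h the mercury libraries of BCL2 had 7.87, 7.44, and 4.30 CPM, all below the non-treated 12.6, 10.1, and 8.37 CPM (LFC -0.66, 95% interval -1.35 to 0.02, edgeR adjusted p = 0.145). In that comparison 19.1% of all genes lay wholly below non-treated cells.

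TNFRSF10B (ENSG00000120889.13), the receptor DR5, was called later than MCL1 and PMAIP1 under mercury. At 6 h the mercury libraries had 59.1, 60.1, and 61.1 CPM against 35.1, 33.3, and 45.3 CPM, with no overlap (LFC 0.66 ± 0.15, edgeR adjusted p = 0.00123). At 12 h they had 68.7, 88.4, and 73.0 CPM against 32.2, 36.1, and 36.4 CPM (LFC 1.14 ± 0.15, adjusted p = 5.21e-09). At 1.5 and 3 h the mercury LFCs of 0.13 and 0.09 had not passed. The mercury mean was 60.7 CPM at 3 h and 60.1 CPM at 6 h, whereas the non-treated mean was 57.0 and 37.9 CPM. The first call at 6 h thus came with a lower non-treated level than at 3 h and no higher mercury level.

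At 24 h the mercury libraries of TNFRSF10B had 88.1, 103, and 72.7 CPM and the arsenic libraries 53.2, 56.7, and 71.3 CPM, against 27.3, 34.7, and 49.9 CPM in non-treated cells. Both metals were above all non-treated libraries, which themselves were widely spread. The LFC was 1.24 ± 0.14 for mercury (edgeR adjusted p = 1.14e-10) and 0.70 ± 0.15 for arsenic (adjusted p = 0.000266), and without the first non-treated library, the lowest, they were 1.06 and 0.51 and still called. The cadmium libraries, at 42.3, 42.7, and 37.0 CPM, lay within the non-treated range (LFC 0.13, 95% interval -0.16 to 0.43).

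Cadmium had raised TNFRSF10B at 12 h, when its libraries had 64.4, 58.8, and 62.2 CPM (LFC 0.82 ± 0.15, edgeR adjusted p = 4.72e-05). Arsenic gave 49.0, 52.6, and 51.8 CPM at the same time (LFC 0.55 ± 0.15, adjusted p = 0.0142). The arsenic call at 12 h was lost without the first non-treated library (LFC 0.50, adjusted p = 0.103) and without the second arsenic library (0.53, adjusted p = 0.0628). At 3 h the arsenic libraries, at 40.2, 35.9, and 47.3 CPM, were all below the non-treated 61.3, 53.3, and 56.5 CPM, with an LFC of -0.46 that did not pass (edgeR adjusted p = 0.33).

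**Figure D4:**
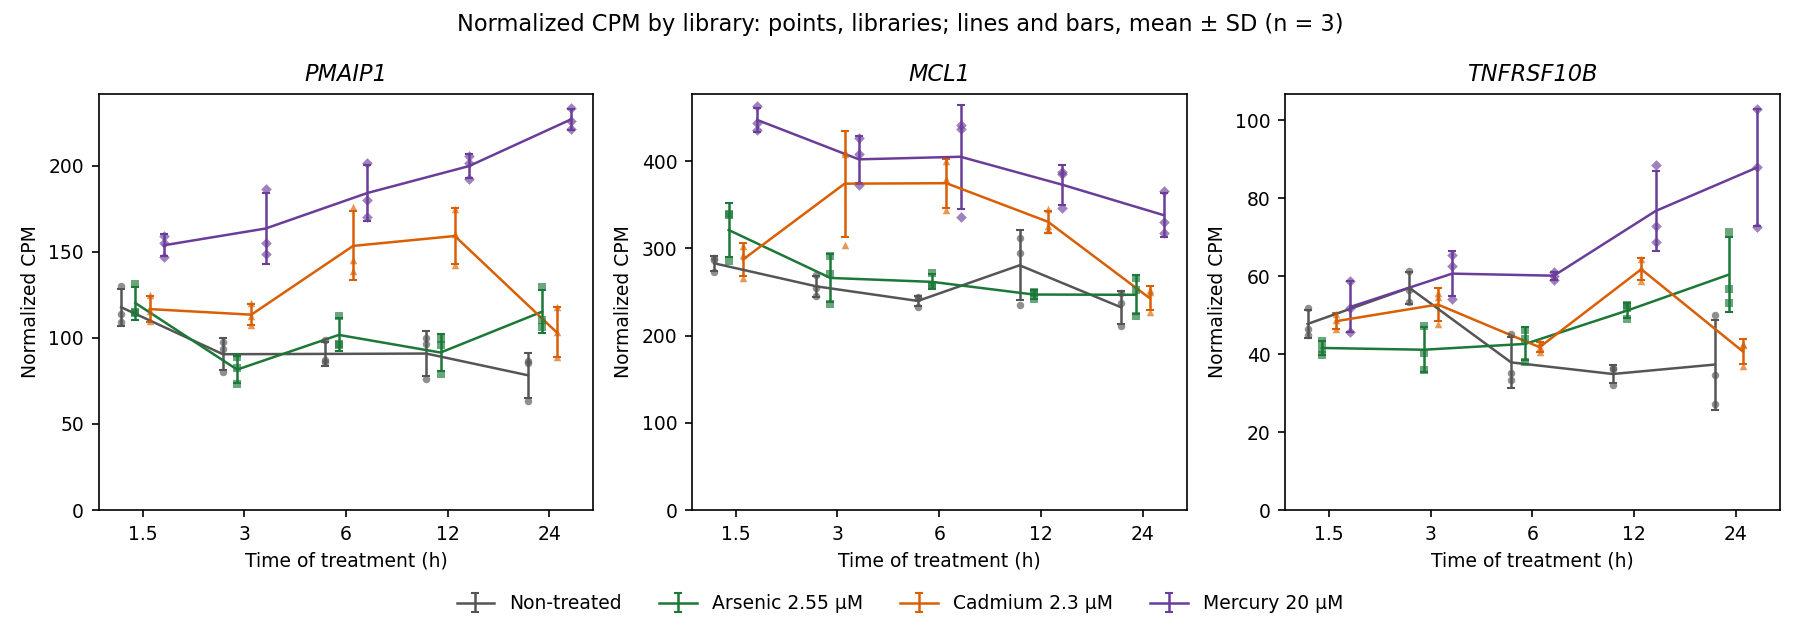
CPM of PMAIP1, MCL1, and TNFRSF10B in each library against time in h, with points for the 3 libraries of a group and lines through the group means of non-treated, arsenic, cadmium, and mercury cells. Under mercury MCL1 is high from 1.5 h, PMAIP1 climbs to 227 CPM at 24 h, and TNFRSF10B reaches 87.9 CPM, while the cadmium libraries of MCL1 and TNFRSF10B are back among the non-treated ones at 24 h.

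The ligands and the other TRAIL receptors that were looked up were at or near the limit of detection. TNFRSF10A had at most 3 counts in any library, TNFRSF10C 0, TNFRSF10D at most 6, and the ligands TNFSF10 (TRAIL), FASLG, and TNF at most 2, 1, and 1. A count of 3 corresponds to 0.682 to 1.36 CPM in these libraries. TNFRSF10B was thus the one of the TRAIL receptors looked up that passed the filter on low counts. Of the 50-base stretches in the last 400 exonic bases of its transcript, 6% also occur in another gene, against 0% for the other 9 genes.

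Each pair of metals was then compared at the same time, which needs no non-treated libraries. The 3 pairs share the metal libraries among them. Arsenic and mercury differed in 16 of 50 tests of the 10 genes, all lower under arsenic (5.23% of all tests called in either direction). Cadmium and mercury differed in 9 of 50, all lower under cadmium (5.91%), and arsenic and cadmium in 7 of 50, of which 5 were lower and 2 higher under arsenic (3.45%). Of these 32 differences, 13 were lost when some single library was left out.

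At 24 h, PMAIP1 was lower under arsenic than under mercury by an LFC of -0.98 ± 0.11 (edgeR adjusted p = 6.86e-10) and lower under cadmium by -1.13 ± 0.11 (4.66e-12). The libraries of both groups were below all mercury libraries. Between arsenic and cadmium the PMAIP1 difference was 0.15, with a 95% interval of -0.08 to 0.39 (edgeR adjusted p = 0.465).

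TNFRSF10B at 24 h had the same order of means as PMAIP1. Its level was highest under mercury, intermediate under arsenic, and lowest under cadmium. Each neighbouring pair differed in TNFRSF10B, whereas arsenic and cadmium were not called different in PMAIP1. The arsenic level was higher than that of cadmium by 0.57 ± 0.14 (edgeR adjusted p = 0.00465) and lower than that of mercury by an LFC of -0.54 ± 0.14 (0.00443). The first difference was lost without the third arsenic library (LFC 0.42, adjusted p = 0.0874). The second was lost without the first arsenic library (-0.46, adjusted p = 0.0513) or the second mercury library (-0.42, adjusted p = 0.0778).

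Among the metals at 24 h, arsenic gave the highest mean of BBC3. Its LFC against cadmium was 0.95 ± 0.17 (edgeR adjusted p = 2.16e-05), and it remained called without any single library. Against mercury it was 0.39, with a 95% interval of 0.06 to 0.72 (adjusted p = 0.115), although the lowest arsenic library, at 55.3 CPM, was above the highest mercury library, at 52.1 CPM. Cadmium was below mercury by -0.56 (edgeR adjusted p = 0.0128), which was lost without the second mercury library (-0.44, adjusted p = 0.113).

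MCL1 at 24 h was lower under arsenic than under mercury by -0.45 (edgeR adjusted p = 0.000816) and lower under cadmium by -0.48 (0.000238). Arsenic and cadmium, which had differed in MCL1 at 3, 6, and 12 h (LFC -0.49, -0.52, and -0.42, edgeR adjusted p = 0.0051, 0.000564, and 0.00394), differed at 24 h by 0.02 with a 95% interval of -0.18 to 0.22. The difference at 3 h was lost without the first arsenic library (LFC -0.42, adjusted p = 0.135) or without the first or second cadmium library (-0.43 and -0.42, adjusted p = 0.127 and 0.168).

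BID was lower under cadmium than under mercury at 24 h (LFC -0.58, edgeR adjusted p = 0.00232). BCL2L11 was lower under arsenic than under mercury (-0.76, adjusted p = 0.0369), and this difference was lost without any of the 3 arsenic libraries (adjusted p = 0.0568 to 0.126) and without the second mercury library (-0.45, adjusted p = 0.379). The one difference between metals in BCL2L1, lower under arsenic than under mercury at 6 h (-0.60, edgeR adjusted p = 0.0486), was lost without any of the 6 libraries compared (LFC -0.69 to -0.52, adjusted p up to 0.214).

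**Figure D5:**
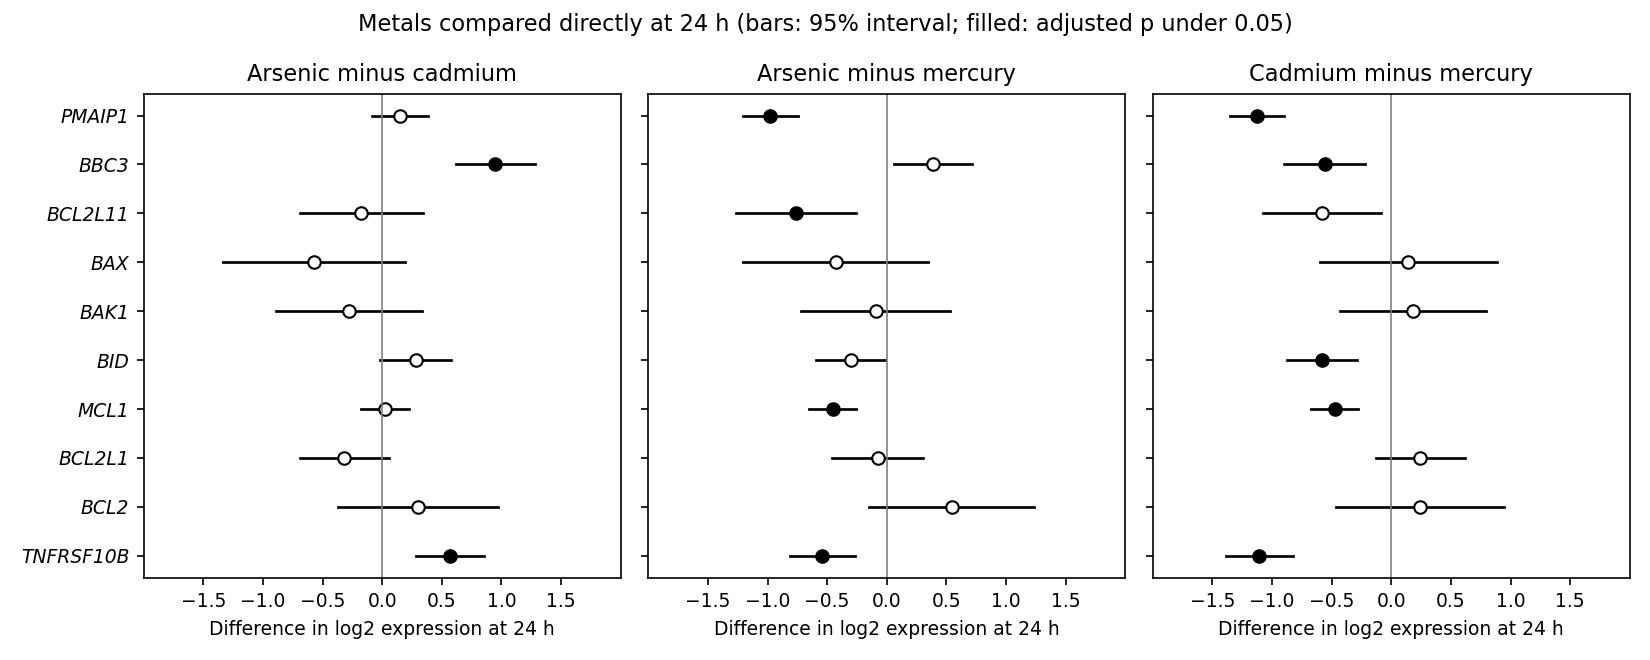
Difference in log2 expression between metals at 24 h for each of the 10 genes. The panels show arsenic minus cadmium, arsenic minus mercury, and cadmium minus mercury. Bars give the 95% interval of the edgeR fit, filled points an adjusted p under 0.05, and a line marks 0. The points of PMAIP1, TNFRSF10B, and MCL1 lie to the left of 0 in both panels with mercury. The arsenic minus cadmium point of BBC3 lies to the right of 0.

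The change of a metal's effect with time was tested by comparing the LFC at 24 h with those at 12 and 3 h. Between 3 and 24 h the LFC rose for PMAIP1 and TNFRSF10B under arsenic (2 of 10 genes, 2.66% of all genes with a rising LFC) and under mercury (2 of 10, 4.63%). Under cadmium no rise was called in any of the 10 (0.348%) in edgeR or DESeq2, where edgeR had 1 gene at an unadjusted p under 0.05. For TNFRSF10B the growth was 1.16 ± 0.21 under arsenic (edgeR adjusted p = 5.35e-05) and 1.15 ± 0.20 under mercury (2.49e-05). For PMAIP1 it was 0.71 ± 0.17 (edgeR adjusted p = 0.00432) and 0.68 ± 0.16 (0.0029). Under arsenic the LFCs at 3 h were below 0, at -0.46 for TNFRSF10B and -0.14 for PMAIP1, and were not called. The growth under arsenic is thus a change from below to above the non-treated level. The growth includes a lower non-treated level at 24 h than at 3 h. The non-treated mean of TNFRSF10B was 57.0 CPM at 3 h and 37.3 CPM at 24 h. The TNFRSF10B mean went from 41.1 to 60.4 CPM under arsenic and from 60.7 to 87.9 CPM under mercury. For PMAIP1 the non-treated means were 90.5 and 78.3 CPM.

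Between 12 and 24 h edgeR called none of the 10 genes under any metal, with 1, 3, and 3 genes at an unadjusted p under 0.05 for arsenic, cadmium, and mercury, while it called 1.57%, 0.381%, and 0.624% of all genes. DESeq2 called PMAIP1 under arsenic (LFC 0.56, adjusted p = 0.0309), and edgeR did so without the first non-treated library of 12 h (0.67, adjusted p = 0.0361) or the third of 24 h (0.64, adjusted p = 0.0371). The lower cadmium effect on TNFRSF10B at 24 h than at 12 h was -0.69 ± 0.21 (edgeR adjusted p = 0.147), and that on PMAIP1 was -0.40 ± 0.17 (0.376). TNFRSF10B was called under cadmium at 12 h and not at 24 h, and this difference between the times did not pass the test, except that without the first non-treated library of 24 h it was -0.87 (adjusted p = 0.0438). PMAIP1 was called under cadmium at both times.

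The rest of the pathway was described with lists of genes, each by its counts at 24 h beside the medians of all genes tested, which were 0.00 under arsenic, -0.01 under cadmium, and -0.02 under mercury. The share of all genes called higher and lower was 6.54% and 7.75% under arsenic, 1.56% and 0.632% under cadmium, and 13.9% and 13.9% under mercury. Against these, the 10 genes themselves had median LFCs of 0.19, 0.07, and 0.46.

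Of 14 other BCL2-family genes, 6 had enough counts. Arsenic raised 1 and lowered none, cadmium changed none, and mercury raised 2 and lowered 1, with median LFCs of 0.28, 0.07, and 0.47. BNIP3L, a mitophagy receptor, rose under arsenic (LFC 0.61, edgeR adjusted p = 0.000842) and mercury (0.56, 0.00114). BAD, a BH3-only protein, fell under mercury (-0.74, adjusted p = 9.88e-05).

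Of 16 genes of death receptor signalling, 9 were tested. Arsenic lowered 2, cadmium changed none, and mercury raised 1 and lowered 3, with median LFCs of 0.06, -0.07, and -0.30. The gene raised by mercury was CASP8, the initiator caspase of this route (LFC 0.81, edgeR adjusted p = 0.00857). It was named after its value was seen. The death receptor TNFRSF21 fell under mercury (-1.08, adjusted p = 4.29e-07) and arsenic (-0.61, 0.00534), the adaptor TRADD fell under mercury (-1.22, 0.012), and the kinase RIPK1 fell under arsenic (-0.49, 0.0348). FAS, another death receptor, had 5.72 CPM in non-treated cells and LFCs of 0.21, -0.07, and -0.51 that did not pass.

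Of 18 genes of caspase activation and caspase inhibition, 17 were tested. The genes called lower numbered 4 under arsenic and 5 under mercury, cadmium changed none, and the median LFCs were 0.02, 0.01, and -0.13 for arsenic, mercury, and cadmium. BIRC3, which encodes cIAP2, an inhibitor of killing through death receptors, fell from 38.9 CPM in non-treated cells to 12.4 CPM under arsenic (LFC -1.64, edgeR adjusted p = 8.99e-11) and 14.6 CPM under mercury (-1.42, 2.1e-09). Its relative BIRC2 (cIAP1) fell under arsenic (-0.77, 1.5e-09) and mercury (-0.39, 0.000779).

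The list named for the ATF4-CHOP branch of the integrated stress response held the most calls. The lists were chosen with earlier results of these data known, so this order is a description only. Of its 10 genes, arsenic raised 8, cadmium 4, and mercury 9, and none fell, with median LFCs of 1.17, 0.66, and 2.39. ATF3 rose from 6.90 CPM to 14.5, 30.2, and 92.7 CPM under arsenic, cadmium, and mercury. PPP1R15A, a phosphatase subunit that restores translation, rose with LFCs of 1.26, 1.80, and 3.04 (edgeR adjusted p = 2.32e-09, 9.59e-15, and 2.79e-26).

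CHAC1, which degrades glutathione, and TRIB3, a pseudokinase, rose under arsenic (LFC 3.11 and 2.35, edgeR adjusted p = 8.2e-12 and 2.06e-17) and mercury (3.06 and 2.63, 6.63e-12 and 3.98e-20). Under cadmium their LFCs of 0.97 and 0.58 did not pass (adjusted p = 0.199 and 0.0944). DDIT3, which encodes CHOP, had 8.12 CPM in non-treated cells and 35.5, 22.3, and 47.2 CPM under arsenic, cadmium, and mercury (LFC 2.13, 1.47, and 2.55, edgeR adjusted p = 1.21e-12, 1.17e-06, and 2.46e-16). DDIT3 was added after its values were seen, for its known role upstream of TNFRSF10B, BBC3, and BCL2L11.

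Of 10 genes for MCL1 turnover and FOXO factors 9 were tested, and arsenic and cadmium each raised 1 and lowered 1, whereas mercury raised 3 and lowered 1, with median LFCs of 0.04, 0.01, and 0.24. BAG3, a co-chaperone, rose under arsenic, cadmium, and mercury (LFC 0.64, 0.76, and 2.45, edgeR adjusted p = 0.000298, 7.26e-05, and 6.98e-25). FOXO3, a transcription factor of BCL2L11 and BBC3, fell under all 3 metals at 24 h (-0.77, -0.56, and -0.49, edgeR adjusted p = 1.13e-05, 0.00625, and 0.0027). At 12 h, FOXO3 was instead higher under mercury (0.57, edgeR adjusted p = 0.00125) and was not called under arsenic or cadmium (0.11 and 0.27). Its non-treated mean was 61.3 CPM at 12 h and 95.4 CPM at 24 h. VDAC2, a mitochondrial channel that binds BAK1, rose under mercury (0.59, 0.000165).

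For the 3 genes with the widest range of group means, the genes with the most similar course over the 20 groups were sought among 10790 tested genes by Pearson's r of the group mean log2 CPM. PMAIP1 was most like ERRFI1 (r = 0.942), RND3 (0.941), and TRIB1 (0.937). BBC3 was most like PRDM4 (0.856), SPANXD (0.852), and INHBE (0.833). BCL2L11, at its lower depth, reached only 0.746 with NR4A2, 0.744 with MEF2D, and 0.738 with VDAC2. The groups of a time share their handling and the groups of a metal their agent, so these values describe likeness and carry no test.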

How the data were processed

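Per the study's methods and the submitters' processing notes, 3′ mRNA libraries were aligned with STAR 2.7.9a to GRCh38, and reads were counted strand-specifically on exons of the GENCODE basic annotation. Reads overlapping several genes were not counted. The deposited values are whole-number counts per gene without normalization. The table also holds 92 spike-in rows, which had 0 counts and were left out.

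A single edgeR 4.0.16 model (R 4.3.3) held all 60 libraries, each of the 20 groups having its own coefficient, with TMM factors (0.934 to 1.03), and filterByExpr (minimum count 10, minimum total count 15). The common biological coefficient of variation was 0.120. Comparisons were each metal with non-treated cells (15), metals with each other (15), the effect at 24 h with that at 12 or 3 h (6), and non-treated cells over time (4), each tested by quasi-likelihood and adjusted by Benjamini-Hochberg over 12341 genes. Intervals are 95% model intervals.

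Alternatives were DESeq2 1.42.0, RLE size factors, no filter or a minimum count of 30, a replicate block, separate models of the 6 libraries of a comparison, and leaving out each library. The fit was tested on simulated counts. No replicates were copies (lowest chi-square per degree of freedom 2.02 in 60 pairs).

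The 10 genes and the 6 lists were chosen with earlier results of these data known. Named from each list were, for each metal, the 2 genes with the largest LFC among those called at 24 h with a mean of at least 10 counts, and, for the 3 members with the widest range, the 3 genes most like them. A count of 3 was taken as the floor. RefSeq promoter windows were read from the reference tables. Results of 1 list, 1 motif, and some genes of the caspase list are not reported here. Screens and proteins were not analysed here.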

Additional observations from a re-analysis of the deposited data

Results flagged for a closer look

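Of the 10 genes, 2 had an effect that differed between 2 times of the same metal in a test of the difference itself (edgeR's quasi-likelihood test, adjusted over all genes tested). The LFC of PMAIP1 under arsenic was higher at 24 h than at 3 h by 0.708 (adjusted p = 0.00432), and that under mercury by 0.683 (0.0029). For TNFRSF10B the growth of the effect was 1.16 under arsenic (adjusted p = 5.35e-05) and 1.15 under mercury (2.49e-05). All 4 remained called when any 1 library was left out. The weakest fit for each of the 4 was without the first non-treated library of 24 h, where the growth was 0.58 and 0.56 for PMAIP1 under arsenic and mercury and 0.98 and 0.97 for TNFRSF10B. Arsenic and mercury share these non-treated libraries, so the values of both metals rest in part on the same libraries. The non-treated mean of TNFRSF10B was 57.0 CPM at 3 h and 37.3 CPM at 24 h, and the growth of the effect includes this lower level. The arsenic LFCs at 3 h were below 0 and not called (-0.46 for TNFRSF10B and -0.14 for PMAIP1), so under arsenic the sign changed.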

How the results depend on the processing

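The calls of the 10 genes against non-treated cells, over the 5 times, numbered 4 for arsenic, 6 for cadmium, and 16 for mercury, and leaving out each library in turn gave 3 to 5, 5 to 6, and 15 to 17. Of these 26 calls, all but 5 held in every alternative run. Those lost in some were PMAIP1 under cadmium at 24 h, BBC3 under mercury at 3 h, BID under mercury at 6 h, MCL1 under mercury at 12 h, and TNFRSF10B under arsenic at 12 h, and of these PMAIP1 and BBC3 were also lost outside the fits without a library. PMAIP1 under cadmium at 24 h had an adjusted p of 0.0758 with no filter and 0.421 with only the 6 libraries compared. BBC3 under mercury at 3 h had 0.0552 with RLE size factors, 0.191 with no filter, and 0.088 with only the 6 libraries. The cause of these losses was not tested. No result reversed.

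Between metals, leaving out each library gave 6 to 7 calls for arsenic against cadmium (7 in all libraries), 14 to 17 for arsenic against mercury (16), and 7 to 10 for cadmium against mercury (9). The calls of the 10 genes in non-treated cells over time numbered 1, and there were 3 with a minimum count of 30, 2 with only the 6 libraries compared, 4 in DESeq2, and 1 to 2 without each library (2 without non-treated replicate 2 or 3 of 24 h or replicate 3 of 12 h). The calls in the 6 lists under cadmium at 24 h were 10, and 6 with only the 6 libraries compared and 8 to 11 without each library. The cause was not tested. The lists gave 19 to 23 calls under arsenic (22) and 29 to 36 under mercury (36) without each library.

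The replicate numbers did not pair the samples. Over 45 treated and non-treated pairs that share a number, the median correlation of their deviations from the group means was -0.00199 (-0.525 to 0.238), with 4 pairs over 0.1. With the replicate block, 2 calls were lost, BBC3 under mercury at 3 h (LFC 0.67, edgeR adjusted p = 0.0568) and BCL2L1 between arsenic and mercury at 6 h (LFC -0.59, edgeR adjusted p = 0.0507).

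With 3 libraries a group of 2215276 to 4404609 counts, the genes with non-treated medians of 7.09 to 14.9 CPM, BAX, BCL2, BCL2L11, and BAK1, had standard errors of 0.26 to 0.42 on the log2 scale, against 0.10 for MCL1 and 0.12 for PMAIP1.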
